A study of Mus musculus with 8 samples.

Results

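The Agilent mouse expression array used here carries, beside probes for named genes, 16194 probes whose target is given only as a stretch of the genome and a strand, and which the array describes as long intergenic non-coding RNA (lincRNA). The transcripts described here are those that were detected in self-renewing ES cells: 6688 position-named probes (41.3%), of 55681 probes on the array, whose signal stood well above background on 3 or all 4 untreated arrays. These 6688 probes lie in 2387 of the 3543 named regions and in 1577 of 2226 loci after overlapping regions were merged. E14Tg2A.4 cells, a feeder-free line of mouse embryonic stem (ES) cells, were left untreated (4 biological replicates) or received 1 µM all-trans retinoic acid (RA) for 72 h in medium without LIF (4 biological replicates), so the withdrawal of LIF and the addition of RA cannot be told apart. RNA was treated with DNase, labelled with Cy3 and hybridized to 1-colour SurePrint G3 arrays, on which each 60-base probe reports a single strand. Levels are log2 intensities relative to the 75th percentile of the array, and a level of 1 probe cannot be set against that of another. All positions of regions and probes are those of mm9, as the array files give them.

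LincRNAs are transcripts longer than those of the small RNA classes that do not overlap protein-coding genes and show little coding potential. Many are capped, spliced and polyadenylated like mRNAs, while their levels are usually lower and more restricted to a cell type, and several act in the nucleus on chromatin or on the transcription of neighbouring genes. ES cells express a set of them, some under the control of the transcription factors that maintain pluripotency, and RA is a morphogen that drives ES cells out of self-renewal and activates *Hox* genes through nuclear receptors.

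The first 60-base probes below belong to the position-named transcripts that changed most and whose values open the results. They are given in the orientation in which the array lists them, with the mm9 position of the probe itself, and carry no capitals because no part of them is singled out.

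chr17:12941161-12944859 forward, probe at chr17:12944580-12944639 (+): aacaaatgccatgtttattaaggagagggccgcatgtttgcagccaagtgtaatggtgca
chr6:34548561-34612216 forward, probe at chr6:34548606-34548665 (+): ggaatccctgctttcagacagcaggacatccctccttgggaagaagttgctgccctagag
chrX:50407969-50410370 reverse, probe at chrX:50408238-50408297 (-): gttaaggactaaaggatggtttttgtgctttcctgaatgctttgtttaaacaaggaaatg
chr3:75451370-75459674 reverse, probe at chr3:75452156-75452215 (-): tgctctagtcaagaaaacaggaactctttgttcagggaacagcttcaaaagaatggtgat
chr17:15357376-15385701 reverse, probe at chr17:15373295-15373354 (-): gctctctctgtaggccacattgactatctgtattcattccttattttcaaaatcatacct
chr6:122341396-122342710 forward, probe at chr6:122342586-122342645 (+): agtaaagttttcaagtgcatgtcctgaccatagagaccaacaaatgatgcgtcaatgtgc

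The next set shows members whose 60 bases tie them to an annotated gene or microRNA. Capitals mark the bases shared with a probe of that gene, or with the RefSeq hairpin, which is given on its own line with its U.

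chr3:87757295-87774970 forward, all 60 bases shared with the *Crabp2* probe: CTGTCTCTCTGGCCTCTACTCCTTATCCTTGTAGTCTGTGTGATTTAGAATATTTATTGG
chr16:32309935-32328234 reverse, all 60 bases shared with the *Timm17b* probe: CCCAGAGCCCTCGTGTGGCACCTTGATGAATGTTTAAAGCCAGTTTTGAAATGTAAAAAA
chrX:50087925-50101700 reverse, probe at chrX:50094899-50094958 (-): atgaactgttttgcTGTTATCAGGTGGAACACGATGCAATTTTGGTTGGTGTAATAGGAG
Mir363 hairpin: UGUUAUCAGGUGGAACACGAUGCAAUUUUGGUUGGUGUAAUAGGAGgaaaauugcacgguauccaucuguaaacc
chrX:50087925-50101700 reverse, probe at chrX:50095036-50095095 (-): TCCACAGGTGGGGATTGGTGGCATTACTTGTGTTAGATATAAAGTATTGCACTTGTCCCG
Mir92-2 hairpin: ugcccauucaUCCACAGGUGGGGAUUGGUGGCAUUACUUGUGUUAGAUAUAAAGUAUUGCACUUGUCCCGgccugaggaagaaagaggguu

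The mature microRNAs cut from the 3′ arms of these hairpins share their seed, bases 2 to 8, shown in capitals.

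mmu-miR-363-3p: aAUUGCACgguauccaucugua
mmu-miR-92a-3p: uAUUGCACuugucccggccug

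Per array, between 33629 and 37175 spots (56.7% to 62.7%) were well above background and none was saturated. All 7 ES cell markers examined, *Pou5f1*, *Nanog*, *Zfp42*, *Esrrb*, *Dppa5a*, *Tdgf1* and *Klf2*, were detected on every untreated array and fell after RA by 2.18 to 6.30 on the log2 scale. After RA all 5 primitive endoderm markers rose (*Gata4*, *Gata6*, *Sox17*, *Dab2* and *Lama1*, by 1.31 to 3.82), as did 4 of 5 fibroblast markers (*Col1a1*, *Col1a2*, *Postn* and *Twist1*, but not *Thy1*), while of 5 neural markers *Nes* rose and *Tubb3* fell. The part of these cell types in the changes below was not tested. In these bulk samples fewer cells of a type and less RNA per cell cannot be told apart.

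Of the 6688 members, 2785 (41.6%) were lower after RA, 535 (8.0%) were higher and 3368 were not called, where a call needed both an adjusted p under 0.05 in limma and a change above 1.5-fold. In all, 47.9% of the 25169 other probes that passed the same detection rule were called. Their shares were 29.3% lower and 18.6% higher, and over all probes, of which 34.6% were called, 21.6% were lower and 12.9% higher. The gap in lower shares depended on the processing: the authors' log2 table had 21.0% of members and 20.5% of the other detected probes lower, and normexp and quantile normalization gave 21.1% and 20.6%, while 6.97% and 19.1% were higher in the authors' table. With quantile normalization alone 30.6% and 23.5% were lower. The median log2 change was -0.55 for the members, -0.24 for the other detected probes and -0.28 for all probes, and the members' 10th and 90th percentiles were -2.38 and 0.57. These medians were -0.34, -0.07 and -0.00 with quantile normalization and -0.16, -0.05 and -0.01 in the authors' table. All 4 RA values lay below all 4 untreated values for 2915 members and above them for 567, against 34.5% and 21.4% of the other detected probes and 23.8% and 13.9% of all probes. A change of at least 4-fold was seen in 882 members that were lower and in 61 that were higher, beside 7.78% and 4.87% of the other detected probes and 5.63% and 4.19% of all probes. Because the untreated values chose the members, a fall was easier to reach than a rise, and nothing is read from these shares alone. When position-named probes were instead taken by the same rule on the RA-treated arrays (6182 probes), 1832 were lower and 929 higher, so 66.4% of the called members were lower in place of 83.9%. Among the other probes chosen on the RA-treated arrays, 51.7% of those called were lower.

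**Figure D1:**
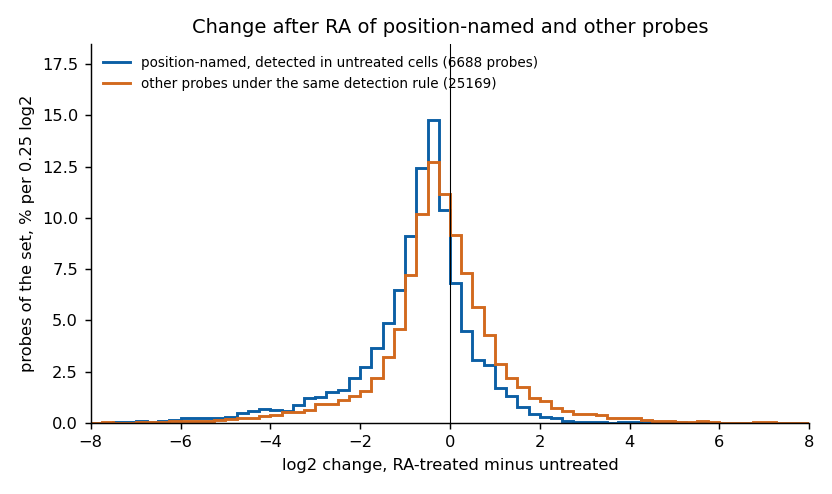
Distribution of the log2 change (RA-treated minus untreated, horizontal axis) as percent of probes per 0.25 log2 for the 6688 position-named probes detected in untreated cells and for the 25169 other probes under the same detection rule. At this scaling the position-named probes are shifted to the left, with medians of -0.55 and -0.24, which were -0.16 and -0.05 in the authors' table.

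Both sets were also compared at matched brightness, in bins of 1 log2 unit of the untreated mean. In all 12 bins with at least 20 members the share of lower members was above that of the other probes, at 34.1% to 55.2% against 23.6% to 36.0%. The share of higher members was below that of the other probes in 11 of these bins, and the exception was the bin from 5 to 6, with 10.3% of 29 members against 4.65% of 860 other probes. The fullest bin, from -5 to -4, held 1755 members, of which 34.1% were lower and 9.12% higher. In the authors' table, where the shares over all bins differed by under 1 point, that of the members was the larger in 10 bins.

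**Figure D2:**
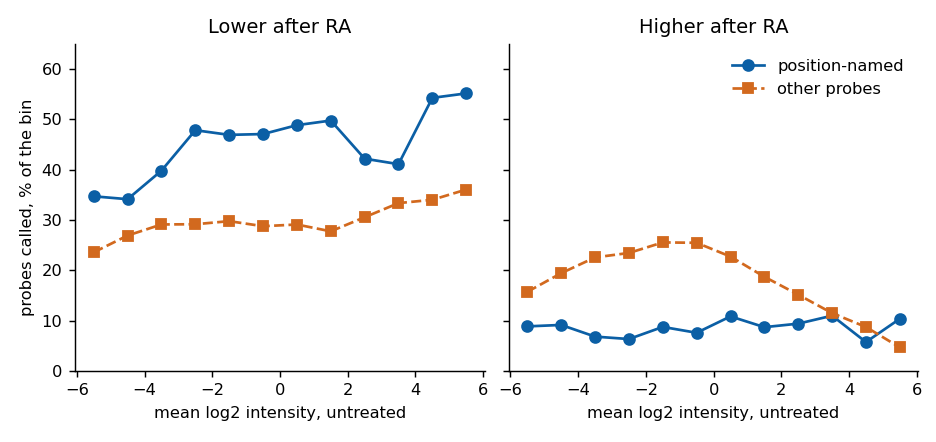
Percent of probes called lower and called higher after RA (vertical axes) in bins of 1 log2 unit of the mean untreated intensity (horizontal axis), for position-named probes and other probes under the same detection rule, in the 12 bins with at least 20 members. The lower share of the position-named probes lies above that of the other probes in all 12 bins.

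The rule did not use the RA-treated arrays. Of the 6688 members, 5138 were well above background on all 4 RA-treated arrays and 370 on 3, so that 5508 (82.4%) still met the limit after RA, against 94.5% of the other detected probes. At the other end 579 members (8.66%) were well above background on no RA-treated array, against 2.65% of the other probes. For such a probe the size of the fall is only bounded. The bound given here as "at least N-fold" sets the mean of the untreated arrays against the mean of, per RA-treated array, the higher of the probe's own signal and the lowest signal of any probe well above background. Ranges over several members use the measured means and can include such probes. The median bound over 578 of these members was 2.81-fold and the highest was 57.7-fold. Among the members that met the rule, 5818 did so on all 4 untreated arrays and 870 on 3. The dimmest member by its untreated mean, chr7:50833970-50850878 reverse, read -4.82, -5.18, -5.52 and -7.23 on the untreated arrays and -6.43, -6.80, -7.30 and -7.98 after RA. It was well above background on no RA-treated array and its values overlapped between the conditions. The difference was at least 1.23-fold, and the measured difference of -1.44 on the log2 scale had an adjusted p of 0.0635, which became 0.00392 with the replicate number as a block and 0.00515 without untreated replicate 4. The brightest probe just outside the rule, chr5:14996031-15035334 forward, was well above background on 2 untreated arrays with a mean of -3.52.

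With 1 probe per region, the strongest rise lay in a region that also holds a probe of *Airn*. This imprinted non-coding RNA runs antisense to *Igf2r*. The probe of chr17:12941161-12944859 forward read -4.17, -3.55, -4.18 and -4.68 on the untreated arrays and 2.31, 1.52, 1.19 and 1.30 after RA. The conditions were far apart, with a log2 change of 5.73 ± 0.31 (SE, n = 4 per condition; adjusted p = 4.68e-06). All 3 members of this region rose, by 4.03 to 5.73, and the nearest *Airn* probe, 145 bp away on the same strand, rose by 5.87. A further *Airn* probe, 62147 bp beyond the region, rose by 4.67. RNA of *Airn* and of this region cannot be told apart. The region chr6:34548561-34612216 forward, with a single member, read -4.98, -3.86, -3.96 and -4.39 before and 1.19, 1.08, 0.57 and 0.56 after RA, a change of 5.15 ± 0.28 (adjusted p = 4.75e-06). It lies between probes of *Bpgm* (-0.40, not called), an enzyme of red-cell glycolysis, and of *Cald1* (4.39), which encodes the actin-binding protein caldesmon. These probes are 93710 and 111418 bp away, and the distance to the ends of either gene was not measured.

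A pair of overlapping reverse-strand regions on the X chromosome rose together. In chrX:50407969-50410370 the named probe read -3.32, -3.65, -2.58 and -3.19 untreated and 1.63, 0.57, 1.14 and 1.50 after RA, and the 3 members changed by 4.39 to 4.50. In chrX:50400250-50410825 the 2 reverse-strand members rose by 4.35 and 5.64, while the 2 forward-strand members of the same region fell by 0.73 and 0.92. The nearest probed gene is *Plac1*, a gene of placental development, 14936 bp away on the same strand, which itself rose by 6.70, from 1 untreated array well above background to 4 after RA. On the other side lies *Hprt*, the purine salvage enzyme, which did not change (0.16). In RefSeq order the interval between *Hprt* and *Plac1* holds the microRNA genes *Mir450b*, *Mir450-1*, *Mir450-2*, *Mir542*, *Mir351*, *Mir503* and *Mir322*.

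The remaining large rises were smaller than these. The reverse-strand member of chr4:129376440-129391690 read between -4.90 and -3.47 untreated and between -1.22 and -0.65 after RA (3.27 ± 0.35), and a probe of *Khdrbs1*, an RNA-binding splicing regulator, 712 bp away on the same strand rose by 3.13, while another probe of this gene, 472 bp from the end of the region, rose by 1.25. Members of chr10:81816994-81863610 and chr10:81846505-81863606 forward rose by 3.13 and 3.05, but their probes share 53 bases and are not separate observations. Their nearest gene probe, *Gm4924*, read -0.53 and was not called. The member of chr16:46384974-46391331 reverse rose by 2.85 ± 0.39, and *Pvrl3*, a nectin of cell junctions 6533 bp away on the same strand, rose by 1.71.

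With 1 probe per region, that of the highest mean, the 8 largest falls measured -5.98 to -7.21 and 8 largest rises 2.85 to 5.73. Other probes of a region can have changed more: 1 in chr17:15357376-15385701 changed by -7.41 and 1 in chr3:87757295-87774970 by 4.31. After RA these 8 falls were well above background on 1 to 3 arrays. Their size depended on how values near background were handled. With the authors' log2 table the same falls were -2.77 to -5.36 and the rises 2.15 to 4.64, and with normexp background correction they were -2.91 to -5.53 and 2.04 to 4.51, so no order of size between falls and rises is read from them. The reverse-strand probe of chr3:75451370-75459674 read 2.98, 2.13, 2.23 and 2.69 untreated and -4.18, -2.32, -5.27 and -7.03 after RA. The log2 change was -7.21 ± 0.84 (adjusted p = 0.000201), and the spread among RA-treated arrays (SD 1.97) exceeded that among untreated arrays (SD 0.40). All 4 reverse-strand members fell, by 6.81 to 7.21, and the only forward-strand member fell below background, at least 2.78-fold. The region lies 5188 bp from *Serpini1*, a serine protease inhibitor whose probe fell by 2.23, and on its other side from *Golim4*, which rose by 1.82. RefSeq lists the pluripotency-associated transcript *Platr10* between these genes.

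In chr10:69844350-69844784 forward the values went from 1.03, 0.50, 0.23 and 0.10 to -6.24, -4.35, -7.78 and -7.93, a log2 change of -7.04 ± 0.72. Its nearest probed gene, *Slc16a9*, is 96260 bp away and was not called (0.46). In chr17:15357376-15385701 reverse they went from 1.98, 0.78, 1.27 and 1.04 to -5.23, -4.98, -4.05 and -5.95, a log2 change of -6.32 ± 0.41. The predicted gene *Gm5091*, 4670 bp away on the same strand, fell by 4.86, and a member of the overlapping region chr17:15368546-15377747 that shares 59 bases with its probe fell by 6.08. In chr6:122341396-122342710 forward the values went from 0.84, 0.19, -0.02 and 0.47 to -5.43, -4.04, -6.09 and -7.76, a log2 change of -6.20 ± 0.67. This probe overlaps that of *1700063H04Rik* on the same strand, which fell by 5.37, and the next gene on one side, the polycomb subunit *Phc1*, fell by 2.70.

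For chr7:114369337-114407862 reverse, between *Rbmxl2* (-2.81) and *Syt9* (-2.16), all 6 members fell, with changes from -1.65 to -6.20. The members of chr17:24157887-24158104 reverse, chr17:84397891-84412748 forward and chr5:53937589-53938561 reverse fell by 6.10, 5.99 and 5.98, each with 1 RA-treated array well above background, and by 3.18, 2.78 and 2.77 in the authors' table. Their closest gene probes, for *Kctd5*, *Zfp36l2* and *Rbpj*, were 27331, 170667 and 106852 bp away and read 0.34, 0.47 and -0.62 without being called. Over the 882 members lower by at least 4-fold, RA replicate 2 was the highest of the RA-treated arrays in 614 (69.6%), and the part of this array in the size of the falls was not tested.

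**Figure D3:**
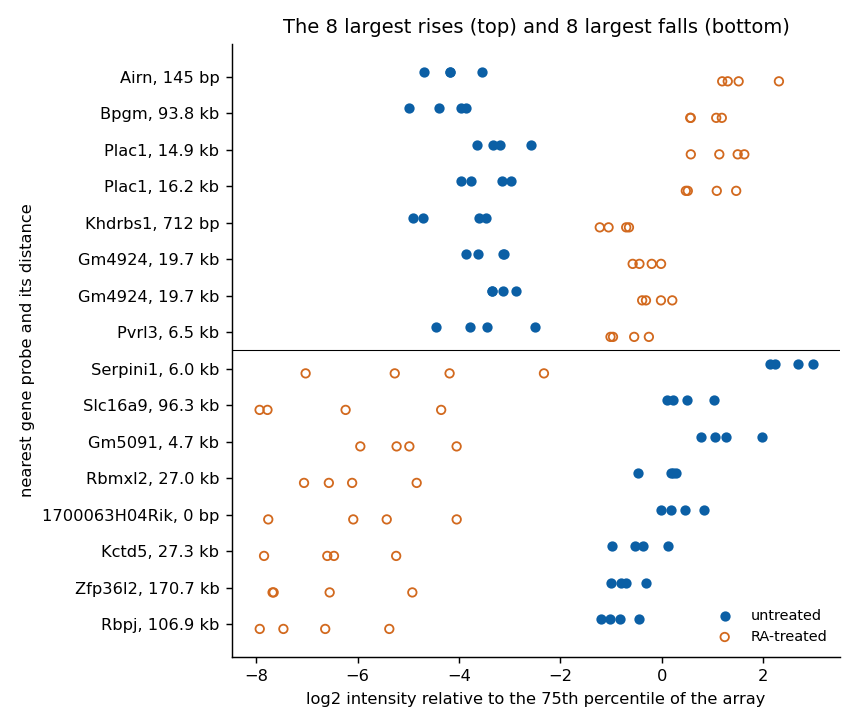
Log2 intensity relative to the 75th percentile of the array (horizontal axis) on each of the 4 untreated and 4 RA-treated arrays. Shown are the 8 largest rises and 8 largest falls among the probes with the highest mean of their region. Each is labelled by its nearest gene probe. The 16 were chosen without overlap between the conditions, and the RA-treated arrays spread more widely among the falls.

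The 5 members with the highest untreated signal were followed as well, although signal does not order RNA amounts between probes. The member of chr11:22681800-22707775 reverse read 8.38, 8.07, 8.0 and 8.46 untreated and 7.71, 7.93, 7.74 and 7.84 after RA, a difference of -0.42 that was not called (adjusted p = 0.0615). This probe shares 45 bases, in the same sense, with the probe of *Rps16*, a ribosomal protein gene on chromosome 7 that changed by -0.41, so RNA of that gene and of this region cannot be told apart. The member of chr19:5801802-5802597 reverse read 8.44, 8.07, 8.08 and 8.09 before and 8.11, 8.22, 7.82 and 8.06 after RA. Its values overlapped, with a difference of -0.12 ± 0.15. The other 3 bright members lie close together on chromosome 17, where RefSeq order places the ribosomal RNA gene *Rn18s-rs5* and *AY036118*. In chr17:39983902-39985688 forward the values fell from 8.04, 8.27, 8.25 and 8.35 to 6.48, 7.22, 6.85 and 6.57, by 1.45 ± 0.19. The members of chr17:39960567-39992817 and chr17:39982023-39983277 fell by 1.43 and 0.81, and the first of these shares 47 bases with the probe just described. All 9 members of the widest of these regions fell, by 0.97 to 2.24. The fall of 0.81 was lost under 6 alternative settings.

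Neighbours on the genome moved with the members most often where they were close and on the same strand. Within 50 kb, 4556 members had a detected gene probe, of 1012 genes, and 65.9% changed in the same direction as that probe, against 55.1% of gene probes and their own nearest other gene. Within 1 kb on the same strand 270 of 313 members (86.3%) shared the sign of 101 genes, with r = 0.91 across probes. In 62 of these 313 pairs the 60-mers overlap and so read the same bases, and without them 216 of 251 (86.1%) shared the sign, with r = 0.90. Among the 313 pairs both probes passed the limits in 148, of which 146 went the same way. Within 1 kb on opposite strands 99 of 164 (60.4%) shared the sign, with r = 0.51, and 37 of the 45 pairs with both called went the same way. For gene probes within 1 kb on opposite strands r was 0.03, and 150 of 300 such pairs went the same way. From 1 to 10 kb the shares were 73.5% on the same strand and 58.8% on opposite strands, and from 10 to 50 kb 62.7% and 61.8%. Gene probes within 1 kb of another gene's probe on the same strand, of which there were 83, shared its sign in 88.0%. Many members share a gene, so these points are not independent. For 2132 members no detected gene probe lay within 50 kb.

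**Figure D4:**
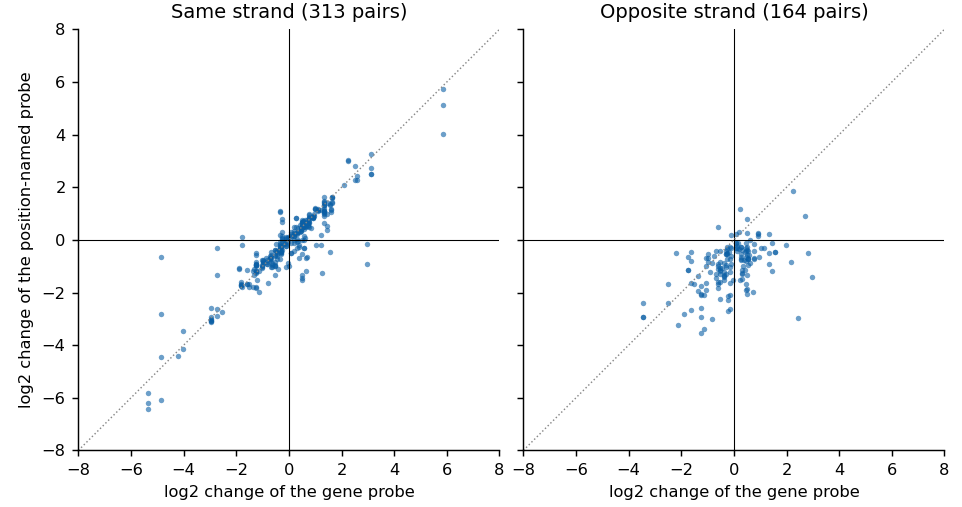
Log2 change after RA of position-named probes (vertical axis) against that of the nearest gene probe within 1 kb (horizontal axis), for pairs on the same strand (313 members) and on opposite strands (164 members). Same-strand points lie along the line of equal change, with 86.3% sharing the sign and r = 0.91. Opposite-strand points scatter more widely, with 60.4% and r = 0.51.

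Some members share bases with the probe of a named gene. Of the members, 81 share at least 20 bases of their 60-mer in the same sense, by the longest match of each with 67 genes, and 78 of them (96.3%) changed in the direction of that probe. The matches of 75 members are to 1 gene, while 3 members match 6 to 8 genes each by at most 22 bases. The member shown above with all 60 bases of *Crabp2*, the cellular RA-binding protein, read 2.84, 2.76, 2.00 and 2.66 untreated and 6.24, 6.53, 6.55 and 6.74 after RA, a rise of 3.95 beside 3.94 for the gene's own probe. A further 3 members of that region, which have no mm9 position in the scanner output, rose by 4.12 to 4.31, while the brightest, at chr3:87772547-87772606, did not change (-0.37). Of the 81 members, 38 match a gene that lies elsewhere in the genome. The member of chr16:32309935-32328234 reverse has all 60 bases of *Timm17b*, a mitochondrial import protein on the X chromosome, and fell by 0.70 beside 0.72 for the gene probe. The member of chr4:146507925-146532650 reverse shares 58 bases with *Baz1a*, a chromatin remodeller on chromosome 12, and rose by 1.01 beside 0.99. For such members the region named by the array and the gene cannot be told apart.

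Further examples with bases of a gene nearby were the member in *E2f6*, a repressive E2F factor, which rose by 1.08 beside 1.02, and that in *Tnrc18*, which rose by 2.08 beside 2.10. The member in *Mir17hg*, the host of the miR-17 cluster, read 0.14 beside 0.18 and was not called, and that in the lincRNA *Tug1* read 0.66 beside 0.63 and was not called. In the antisense sense 69 members share bases with gene probes, by their longest matches those of 58 genes, among them the ribosomal protein genes *Rps2*, *Rps18*, *Rpl26* and *Rpl39*. Of these 45 fell and none rose, beside 41.6% and 8.0% of all members, 45 (65.2%) had the sign of the gene probe, and 59 match a gene elsewhere in the genome.

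Probes of the same region gave a view of how far a region behaved as a unit. Over 12884 pairs of members in 1502 regions, 81.9% changed in the same direction, with 88.2% on the same strand and 72.2% on opposite strands. Of all members 77.7% had a change below 0, a share that was 69.2% with quantile normalization and 69.4% in the authors' table. Where both members passed the limits the shares were 98.5% and 89.3%. Of 1019 regions with at least 3 members, all members were lower in 228 and all were higher in 35, while 54 held members of both directions and 238 held none that was called. Over all regions 1137 had members that were lower and none that was higher, 221 the reverse, 58 had both and 971 had neither.

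Of 1067 regions probed on both strands, 593 had a member on each strand, 373 on a single strand and 101 on neither. In 438 of the 593 (73.9%) the median change had the same sign on both strands, lower in 428 and higher in 10, and r between the strands was 0.33. In 37 regions the strands were called in opposite directions. Beside the X-linked region above, chr14:14688472-14747272 had a forward-strand member that rose by 0.87 ± 0.19 and 4 reverse-strand members that fell and were well above background on no RA-treated array, with measured differences of -3.40 to -4.89. In chr10:83980790-83986015 the 4 reverse-strand members rose by 0.65 to 1.36 and the forward-strand member fell below the detection limit, from a mean of -4.75. These examples were chosen after their values had been seen.

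**Figure D5:**
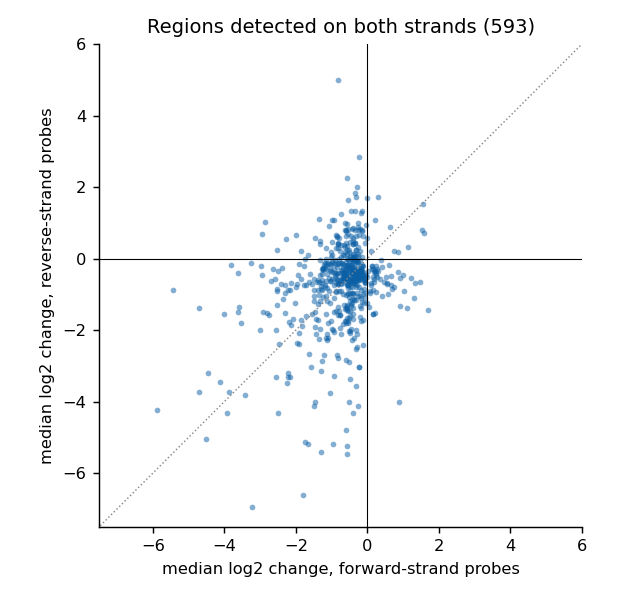
Median log2 change after RA of the members on the forward strand (horizontal axis) and on the reverse strand (vertical axis), 1 point for each of the 593 regions with a member on both strands. Most points lie in the quadrant where both strands were lower (428 regions), and few in the quadrant where both were higher (10 regions).

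The region with the most members was chr5:74487385-74497428, tied with chr7:99879368-99889978 at 18 members each. On chromosome 5, where RefSeq order has the non-coding RNA *Dancr* and the small nucleolar RNA *Snora26* between *Usp46* and *Rasl11b*, the forward strand split over a short distance. The probes starting at 74489483, 74489543 and 74489603 fell by 1.32, 1.54 and 1.45, and the 5 that start between 74490022 and 74490275 read 0.48 to 0.51 without reaching the 1.5-fold limit. The brightest of them read 2.34, 2.14, 2.07 and 2.21 untreated and 2.75, 2.94, 2.32 and 2.71 after RA, and was called under quantile normalization (0.61, adjusted p = 0.00892). It lies 1 bp from the probe of *2700023E23Rik*, which read 0.48. On the reverse strand 3 of 8 members fell, by 1.35 to 2.05. On chromosome 7, between *Pcf11* and *Rab30*, 6 of 8 forward-strand members fell, by 0.83 to 3.57, and 4 of 10 reverse-strand members rose, by 0.75 to 1.01. The brightest of these reverse-strand members read -2.04, -1.79, -1.78 and -2.43 before and -1.18, -1.10, -1.32 and -1.21 after RA, without overlap.

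Most members close to the listed genes of pluripotency fell, but not all of those near *Klf2*, *Klf5* and *Sall4*. Many of these members share a region and are not separate observations. Within 50 kb of 7 of the 16 pluripotency genes listed lay 45 members in 15 regions, of which 40 fell, none rose and 20 were well above background on no RA-treated array, with a median change of -2.46. Over all members 41.6% fell and 8.0% rose, and the detection rule, set on untreated arrays, made falls easier to reach here too. Near *Prdm14*, a repressor of germ-layer genes in ES cells that itself fell by 5.17, all 9 members of chr1:13058312-13099826 fell, by 1.56 to 5.48, on both strands. The member with the highest mean over all 8 arrays read -2.07, -2.31, -2.84 and -2.09 untreated and -3.96, -3.68, -4.14 and -3.77 after RA. The member with the highest untreated mean, on the reverse strand at chr1:13084263-13084322, read -0.82, -1.03, -2.08 and -1.54 untreated, was well above background on no RA-treated array, and fell at least 24.4-fold.

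All 15 members near *Tet1*, the 5-methylcytosine dioxygenase, fell, with changes from -0.96 to -4.00, and the gene changed by -3.45. The brightest, chr10:62267317-62269871 reverse, read 4.73, 4.43, 3.68 and 4.19 untreated and 1.26, 1.72, 0.86 and 0.89 after RA (-3.07 ± 0.27, adjusted p = 4.76e-05). Of chr10:62347876-62374346 all 13 members fell, the most by 6.05, including some beyond the 50 kb limit. This region reaches into the *Tet1* promoter window described below, and its reverse-strand members within 50 kb lie on the strand of the gene. For these, RNA of *Tet1* and of the region cannot be told apart. Near *Sox2*, a core factor of self-renewal that fell by 2.58, the 3 members named chr3:34856791-34869544 fell by 1.78 to 2.46. The scanner output places their probes 25019 to 25591 bp from the *Sox2* probe, outside the region of the name. Near *Klf4*, which fell by 3.00, all 5 members fell, with changes from -0.70 to -4.02, and near *Klf5* 7 of 10 fell, 1 of which (chr14:99735346-99735699 reverse, -0.63) was not called with the replicate block (adjusted p = 0.0571).

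Near *Klf2*, *Otx2* and *Sall4* the members with the highest signal did not pass the limits. *Klf2* fell by 5.58, while its brightest neighbouring member, chr8:74820025-74833350 forward, read 5.04, 4.57, 4.09 and 4.16 before and 4.00, 4.27, 4.16 and 4.26 after RA and was not called (-0.29), and the other fell by 0.81. *Otx2*, a homeobox factor of the forebrain and of the exit from the naive state, fell by 6.49. Its brightest neighbour, chr14:49314574-49358174 reverse, read 4.55, 3.91, 3.89 and 3.57 before and 4.08, 3.57, 3.18 and 4.50 after RA, with overlap (-0.15). This probe shares 22 bases in the same sense with probes of the ribosomal protein gene *Rpl11* on chromosome 4 (-0.30) and of *Gm5093* on chromosome 17 (-0.31), so RNA of these genes and of the region cannot be told apart. Near *Otx2* 2 of 3 members fell. The single member near *Sall4* read -0.33 and was not called.

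Beside *Hoxb5* and *Hoxb9*, homeobox genes of body patterning, the members did not move together. *Hoxb9* rose by 2.76, and 4 of 7 members near it fell, by 0.66 to 1.73. The single member beside *Hoxb5* rose, next to a gene which was not detected on any untreated array and was on all RA-treated ones: chr11:96173788-96174352 forward read -4.31, -4.24, -4.30 and -4.52 before and -3.98, -4.00, -2.92 and -3.16 after RA, a change of 0.83 with an adjusted p of 0.0361 that became 0.0552 with the replicate block. Beside the RA-responsive *Crabp2* and the neural progenitor filament *Nes*, which rose by 3.94 and 2.10, the members assigned by position read -0.14 and -0.37 and were not called. The 4 members without a probe position that carry the name chr3:87757295-87774970, given above, rose by 3.95 to 4.31 and are not in these counts. No member lay within 50 kb of a listed endoderm gene.

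The microRNA host region on the X chromosome differed between its strands. In chrX:50087925-50101700 all 7 reverse-strand members fell, by 2.60 to 3.14, among them the probes shown above that share 46 bases with the *Mir363* hairpin and 60 with the *Mir92-2* hairpin. The *Mir363* probe read -0.54, -0.58, -0.98 and -0.15 untreated and -3.70, -1.78, -3.72 and -4.82 after RA, and the *Mir92-2* probe -1.92, -1.67, -2.24 and -1.39 and then -4.71, -3.24, -3.67 and -5.99. Both are probes of the unprocessed host RNA, whose gene *Kis2* was lower too and not well above background after RA, and say nothing of the mature microRNAs. RA replicate 2 was the highest of the RA-treated arrays in all 7. The 4 forward-strand members of the region read -0.60 to 0.17, and 1 of them was called. Over all 1005 RefSeq hairpins searched, 13 members share at least 20 bases with 8 hairpins. Outside this region, of the 2 members in *Mir8120* the one that shares 60 bases was well above background on no RA-treated array, and the one that shares 22 bases fell by 1.00 and remained detected on all 4. The members in *Mir8110* fell by 0.62 on the sense and 1.47 on the antisense strand, and the antisense member in *Mir6516* fell by 0.65. The sense member in *Mir410* (0.46) and the antisense member in *Mir18* (-0.23) were not called. Nor was the member that matches *Mir1187* (0.19) by a 20-base repeat, which the probes of 6 genes share as well, so the match does not place it there.

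Of the members, 83 lie wholly inside the RefSeq promoter windows (GRCm38.p6, 250 bases before to 50 after the start) of 67 genes, out of 32851 windows searched. In the sense of the gene 20 of 39 fell and 1 rose, and in the antisense 14 of 44 fell and 4 rose, beside 41.6% and 8.0% of all members. Upstream antisense RNA is common at active promoters, and 2 such windows are printed because their antisense members changed in opposite directions. Capitals mark the bases that the 60-mer covers, written in the direction of the gene, so that the probe is their reverse complement.

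Tet1 promoter, GRCm38 chr10:62887275-62887574 (-): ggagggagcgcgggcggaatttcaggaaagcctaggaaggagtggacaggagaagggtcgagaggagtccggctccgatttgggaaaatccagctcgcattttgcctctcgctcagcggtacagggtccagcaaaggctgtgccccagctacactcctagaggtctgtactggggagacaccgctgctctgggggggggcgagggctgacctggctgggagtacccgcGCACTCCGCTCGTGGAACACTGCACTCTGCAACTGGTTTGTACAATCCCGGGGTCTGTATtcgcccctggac
Aak1 promoter, GRCm38 chr6:86849034-86849333 (+): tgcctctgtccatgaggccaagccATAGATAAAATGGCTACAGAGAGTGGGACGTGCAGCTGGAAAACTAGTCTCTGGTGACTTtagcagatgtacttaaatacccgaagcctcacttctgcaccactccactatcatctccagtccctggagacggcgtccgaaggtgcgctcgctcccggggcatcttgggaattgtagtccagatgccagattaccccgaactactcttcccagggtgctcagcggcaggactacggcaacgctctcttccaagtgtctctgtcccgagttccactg

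The antisense member in the *Tet1* window belongs to chr10:62347876-62374346 forward and read -4.31, -3.83, -5.37 and -5.81 untreated. It was well above background on no RA-treated array and fell at least 2.22-fold. The antisense member in the window of *Aak1*, a kinase of clathrin adaptors, belongs to chr6:86776350-86799379 reverse and read -3.79, -4.17, -3.62 and -3.36 untreated and -1.86, -2.15, -1.67 and -1.56 after RA. The conditions did not overlap, and the rise was 1.93 ± 0.21 (adjusted p = 0.000145), while the forward-strand member in a later window of the same gene read -0.29 and was not called. The member in the sense direction at *Sap30*, a subunit of the Sin3 deacetylase complex, fell by 2.36. Members at the promoters of *Tug1* read -0.34 and -0.43 and were not called.

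By chromosome the share of members that were lower ran from 30.1% on chromosome 12 to 51.6% on chromosome 10, where 25.3% and 28.9% of the other detected probes were lower. The X chromosome had 31.2% lower and the highest share of higher members, 18.6% of 231, while chromosome 19 had the lowest, 1.90% of 158. Of the other detected probes 26.2% on the X chromosome were lower and 22.8% higher, and 18.1% on chromosome 19 were higher. Regions with a member were longer than those without, with a median length of 10101 against 2347.5 bp, and the median GC content of the 60-mers was 45% in members and in the probes that were not members.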

How the data were processed

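The study hybridized RNA from 4 untreated and 4 RA-treated cultures, grouped and numbered by the sample labels, and all 8 arrays were used. For each array the authors deposited a text file from Agilent Feature Extraction 10.7.3.1, which holds an intensity per spot after background correction and without scaling between arrays. A further table, of log2 values, was deposited by the authors, and its normalization is not given in the sources used here.

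In R 4.3.3 the 75th percentile of each array was subtracted from its log2 intensities, outlier-flagged spots (124 to 145 per array) were left out and spots of a probe were averaged. Of the 6688 members, 6 have a missing value. Conditions were compared over all 55681 probes with limma 3.58.1 (lmFit, eBayes) and Benjamini-Hochberg adjustment, and calls needed an adjusted p under 0.05 and a change above 1.5-fold, the limits of the study. The steps were tested on simulated data. The number of arrays limits the precision of every value.

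The members, gene lists and tests were chosen with earlier results of these data known. Named transcripts, 1 probe per region with the highest mean, were the 8 largest rises and 8 largest falls without overlap and well above background on all brighter arrays, the 5 with the highest untreated mean, the region with the most members, those within 50 kb of a listed gene, and the nearest on each side of the detection limit. The matches to gene probes, promoters and hairpins, the members of opposite strands and the flanking genes were added after the values had been seen.

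Of the members, 6635 have an mm9 probe position, 6630 of them inside the named region (within 5 bp), 5 lie outside it and 53 have none. RefSeq (GRCm38.p6) gave names, gene order and sequences, and no coordinates were converted. The members beside 1 listed gene and the flanking genes of 1 region are not reported here. On the array 28509 gene probes matched a RefSeq symbol or an unambiguous synonym.

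Deviations from the condition means had correlations of 0.186, 0.189, 0.104 and 0.151 for same-numbered arrays, against at most 0.142 for different numbers. The value of 0.104 lies below that maximum, and neither labels nor methods state a pairing of cultures. The reported values come from fits without a block, and the replicate number served as a block only in an alternative. The 2 slides hold 2 arrays of each condition. Alternatives were the scaling, background correction, the authors' log2 table, a filter on dim probes, replicate and slide blocks, each slide alone, fold limits, leaving out each array, and other detection rules.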

Additional observations from a re-analysis of the deposited data

Results flagged for a closer look

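Of 94 groups of 4 arrays examined among the named transcripts, 3 held an array far from the other 3, when its gap to the nearest was divided by the range of the group and set against Dixon's limit. Chance alone passes this limit in about 1 group in 20. In chr19:5801802-5802597 reverse the ratio was 0.961, from untreated replicate 1 at 8.44 with the others at 8.07 to 8.09. In chr7:114369337-114407862 reverse it was 0.852, from untreated replicate 3 at -0.47 with the others at 0.18 to 0.29. In chr17:39960567-39992817 forward it was 0.843, from untreated replicate 1 at 8.0 with the others at 8.21 to 8.25.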

How the results depend on the processing

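No named transcript or count changed direction past its limits. Quantile normalization gave 2046 lower and 658 higher members in place of 2785 and 535, and moved the median of all probes from -0.28 to -0.00. The lower count was 1409 with normexp and quantile normalization, 1402 with the authors' table and 1453 with treat at 1.5-fold, which left 210 higher. Slide 1 alone gave 1511 lower and 216 higher, slide 2 alone 1305 and 173. A 2-fold limit left 322 higher. Members chosen on the RA-treated arrays gave 1832 lower and 929 higher, and those detected in either condition, a choice made after seeing the data, also 929 higher. Leaving out each array gave 2391 to 2806 lower and 448 to 533 higher members. Members well above background on at most 1 RA-treated array numbered 887 in place of 579. Over all alternatives for the named transcripts 772 values kept their side of the limits, 62 lost a call and 10 gained one. With the replicate block 2785 members were lower and 542 higher, and beyond the 3 named transcripts given in the text it changed no call. The bright member chr17:39982023-39983277 and the rise beside *Hoxb5* were the least stable, and the cause was not tested. The dimmest members are limited by signal over background, where the size of a fall is only bounded. The share of region pairs with the same sign was 76.8% under quantile normalization, and the neighbour share 64.9%. The share of called members that were lower was 75.1% to 88.3% over scalings, blocks and slides.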
